A study of Homo sapiens with 5 samples.

Results

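Aldehyde dehydrogenases were followed through a mixture series of RNA from 2 human lung adenocarcinoma lines. The set held 9 genes of the 61220 genes in the tables: ALDH1A1, ALDH1A3, ALDH1B1, ALDH2, ALDH3A1, ALDH3A2, ALDH3B1, ALDH7A1 and ALDH9A1. Members were chosen by name, with earlier results of these data known. All transcripts that the GENCODE v44 annotation assigns to a gene were summed, which came to 131 transcripts for the 9 genes, of which 89 had at least 1 read. In the library of NCI-H1975 RNA alone the genes held 1277 reads in all, and in that of HCC827 RNA alone 1447.

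NCI-H1975 and HCC827 are established cell lines. Each was cultured on its own in serum-containing RPMI medium until nearly confluent, and neither line carried a treatment or an engineered allele in any group. There was 1 RNA preparation of each line. By the labels, that of NCI-H1975 carried sequins, which are synthetic spike-in RNAs, of mix A, and that of HCC827 carried mix B. The pair was combined by mass at 5 ratios of NCI-H1975 to HCC827, with 100:0 and 0:100 at the ends and 75:25, 50:50 and 25:75 between them. Poly(A) RNA was turned into PCR-amplified cDNA and read on a nanopore PromethION flow cell, with 1 library for each ratio. A p-value therefore covers only the spread of these libraries about a trend, not that between cultures. A series of this kind asks which genes differ between the RNAs and whether the intermediate libraries fall between the pure ones.

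Library totals lay between 2932250 and 4058751 assigned reads. Lists of 5 values run from NCI-H1975 alone to HCC827 alone, in steps of 25% of the mass. Of 8 epithelial and lung markers, all were detected in both pure libraries and 7 rose towards HCC827, while EPCAM, at 376 and 371 CPM in the pure libraries, did not pass the test. Of 10 markers of blood, endothelial and fibroblast cells, 4 had no read in any library (PTPRC, CD3E, LYZ and DCN). The collagen genes COL1A1 and COL1A2 fell, from 532 to 19 and from 96 to 0 reads, and the other 4 had at most 4 reads in a library. The summed level of the 10 fell from 186 to 8.18 CPM, and its part in the results was not tested. Sequin reads numbered 5475, 4678, 2830, 1269 and 0, so the 0:100 library, labelled with mix B, had none. The cause was not tested. Mean length of the assigned transcripts fell from 2579 bases in the 100:0 library to 2180 in the 0:100 library.

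Aldehyde dehydrogenases are NAD(P)-dependent enzymes that oxidise aldehydes to carboxylic acids, by way of a catalytic cysteine. They act in different compartments on different substrates: retinaldehyde on the way to retinoic acid, acetaldehyde from ethanol, aldehydes from membrane lipids, and aldehyde intermediates of lysine, choline, carnitine and polyamine metabolism. Cells with high activity of the family are often sorted as a stem-like fraction of tumours, including those of the lung, and ALDH1A1 and ALDH1A3 are the members most often linked to that assay.

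Change along the series is given as a slope: the fitted difference in log2 expression between HCC827 alone and NCI-H1975 alone, from a line through all 5 libraries against the HCC827 part of the mass. It was tested with edgeR's quasi-likelihood test and Benjamini-Hochberg adjustment over all 13492 genes tested. Levels are TMM-scaled CPM, that is, reads relative to the library's size after a normalisation on the bulk of genes. Of the 9 genes, 7 had enough reads to be tested. ALDH1A3, ALDH2 and ALDH3B1 rose with the share of HCC827 RNA and ALDH3A2 fell, while ALDH1B1, ALDH7A1 and ALDH9A1 did not pass the adjusted threshold of 0.05. The 4 called genes stand beside a background of 45.8% of all genes tested, 23.5% rising and 22.3% falling. A count of 4 of 7 is near that background and shows nothing particular to the set. The median slope of the 7 genes was -0.24, against -0.035 over all genes tested.

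Summed over the 9 genes, expression was 376, 392, 442, 484 and 538 CPM along the series. The make-up of that sum differed between the ends. ALDH9A1 (22.2% of the reads) and ALDH3B1 (21.0%) took the most in the 100:0 library, and ALDH3B1 (31.9%) and ALDH1A3 (26.3%) in the 0:100 library. ALDH1A3 took 2.58% in the 100:0 library (95% Wilson interval 1.85 to 3.61).

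**Figure D1:**
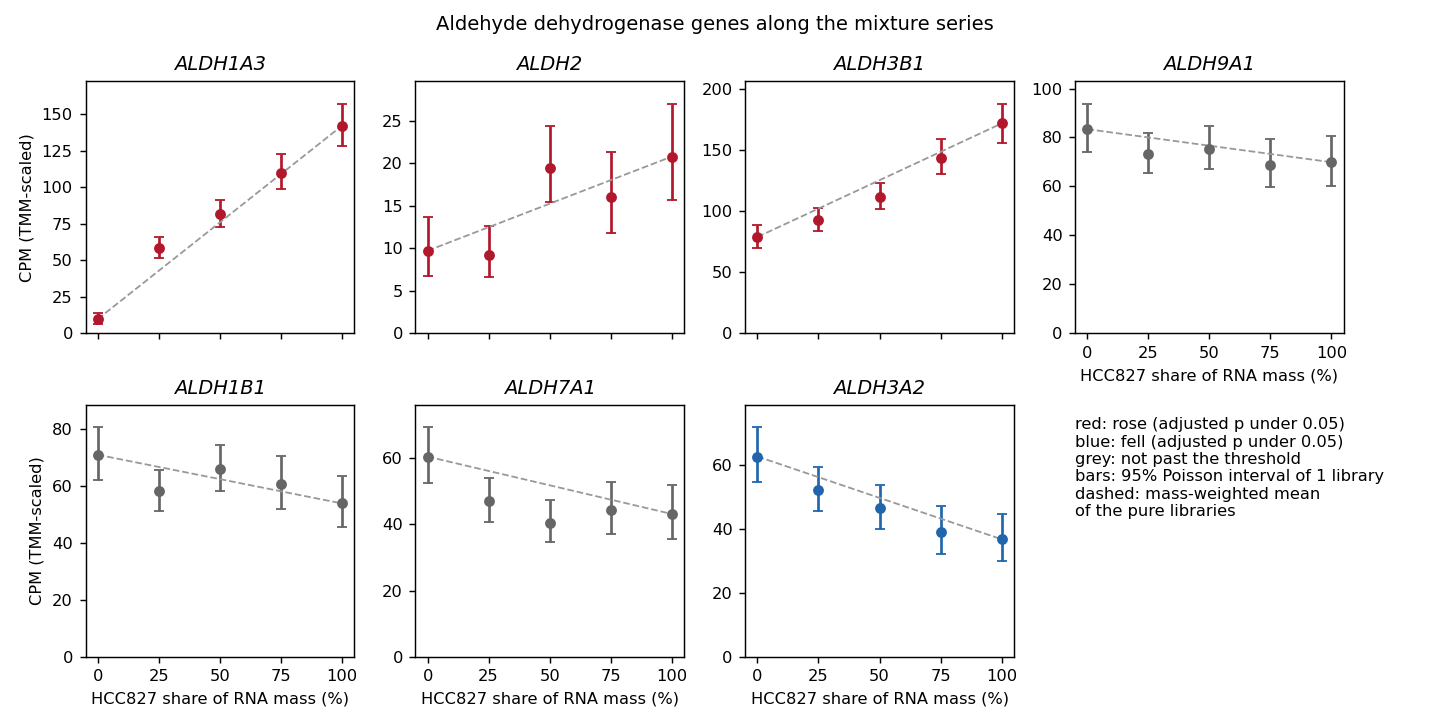
Expression of the 7 tested aldehyde dehydrogenases (y axis, TMM-scaled CPM) against the HCC827 share of RNA mass (x axis, %), 1 point per library; bars are 95% Poisson counting intervals and the dashed line is the mass-weighted mean of the pure libraries. ALDH1A3 went from 9.72 to 142 CPM and lay above the line at 25%, ALDH3B1 rose in every step, ALDH3A2 fell in every step, and the 3 genes in grey did not pass the test.

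The retinaldehyde enzymes were the most unlike pair. ALDH1A3, a cytosolic enzyme that makes retinoic acid from retinaldehyde, lies at chr15:100877714-100916626 on the plus strand (GRCh38). It had 33, 252, 319, 316 and 381 reads, or 9.72, 58.4, 81.9, 110 and 142 CPM. The 100:0 library stood far below the other 4, and each step towards HCC827 was higher than the last. The slope was 2.69 ± 0.42 (SE), with an adjusted p of 0.000246 by edgeR's quasi-likelihood test. Between the pure libraries the level was 14.6-fold higher in HCC827 (95% counting interval 10.2 to 21.5). Without the 100:0 library the slope was 1.71 and still past the threshold.

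ALDH1A1, the cytosolic retinaldehyde dehydrogenase most widely used as a marker of cells with high enzyme activity, is annotated at chr9:72900671-73080442 on the minus strand. None of its 7 listed transcripts had a read in any of the 5 libraries. A count of 0 allows up to 3 reads, which is 0.884 CPM in the 100:0 library, 1.12 CPM in the 0:100 library and 0.175 CPM over the 17039787 reads of all 5. At the upper limit for the 0:100 library, ALDH1A1 would still be far under the 142 CPM of ALDH1A3. The third retinaldehyde enzyme of the family, ALDH1A2, had 1 read, in the 50:50 library.

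The coding sequences of ALDH1A1 and ALDH1A3 are 72.5% identical over 1468 aligned bases. Their promoter windows in RefSeq (GRCh38.p14; 250 bases before to 50 after the transcript start) differ more in composition, and are printed to show the 2 retinaldehyde genes at the extremes of the set, with 1 of 2 windows of ALDH3B1, which also rose. RefSeq windows matched 7 of the 9 members, all but ALDH2 and ALDH3A1. Motifs were searched on both strands: the CCAAT box (CCAAT), the TATA box (TATAAA), the core of the xenobiotic response element (GCGTG) and the core of the antioxidant response element (TGACNNNGC). Capitals mark the matches.
ALDH1A3, chr15:100879581-100879880, plus strand: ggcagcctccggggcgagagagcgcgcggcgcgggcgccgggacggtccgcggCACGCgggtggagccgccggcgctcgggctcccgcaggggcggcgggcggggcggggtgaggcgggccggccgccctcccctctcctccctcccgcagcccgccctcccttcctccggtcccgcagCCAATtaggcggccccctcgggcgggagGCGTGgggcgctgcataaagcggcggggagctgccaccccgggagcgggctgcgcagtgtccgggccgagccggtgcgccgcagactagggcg
ALDH1A1, chr9:72953004-72953303, minus strand: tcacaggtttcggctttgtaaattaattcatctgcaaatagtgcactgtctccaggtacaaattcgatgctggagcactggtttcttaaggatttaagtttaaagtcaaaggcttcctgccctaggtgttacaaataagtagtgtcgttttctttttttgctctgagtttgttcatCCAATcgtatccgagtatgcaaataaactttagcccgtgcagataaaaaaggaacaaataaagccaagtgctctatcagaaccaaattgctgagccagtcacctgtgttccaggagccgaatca
ALDH3B1, chr11:68010077-68010376, plus strand: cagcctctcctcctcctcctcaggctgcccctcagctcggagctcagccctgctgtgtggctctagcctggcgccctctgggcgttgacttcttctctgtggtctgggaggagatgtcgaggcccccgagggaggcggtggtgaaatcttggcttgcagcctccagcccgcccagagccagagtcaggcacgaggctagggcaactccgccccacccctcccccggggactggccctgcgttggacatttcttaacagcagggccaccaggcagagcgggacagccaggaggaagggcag

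The ALDH1A3 window was 81.7% G and C with 46 CpG dinucleotides, that of ALDH1A1 40.3% with 7, and that of ALDH3B1 66.7% with 12, beside medians of 58.7% and 14 over the 35116 RefSeq windows. ALDH1A3 held CCAAT at 71 bases before the start and GCGTG at 43 bases before it, with GCGTG also on the opposite strand at 197 bases before it, where the printed strand reads CACGC. ALDH1A1 held CCAAT at 74 bases before the start, and none of the 4 motifs was found in the ALDH3B1 window. ALDH3A2, the member that fell, has 2 windows in RefSeq, and the one at chr17:19648501-19648800 held CCAAT and 2 copies of GCGTG. Of all windows 34.6% hold CCAAT, 36.5% GCGTG, 13.3% TGACNNNGC and 11.5% TATAAA, so the matches are common ones and describe the sequence only.

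Reads of ALDH1A3 were mostly assigned to a pair of coding transcripts. Both end in the same last exon of 1926 bases, and a read that covers only shared exons fits either form. How such reads were split is not given in the sources used here, so the shares of the pair are estimates. ALDH1A3-201 has 13 exons, and ALDH1A3-202 lacks exons 4 to 6 of it, 321 coding bases, so that the reading frame is kept. The junctions after exon 3 show which sequence tells the transcripts apart; capitals mark the bases after the junction, joined from chr15:100887712 to chr15:100892510 in ALDH1A3-201 and to chr15:100895933 in ALDH1A3-202.
ALDH1A3-201: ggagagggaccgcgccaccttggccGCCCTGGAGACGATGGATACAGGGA
ALDH1A3-202: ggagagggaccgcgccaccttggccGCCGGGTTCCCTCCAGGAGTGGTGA

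ALDH1A3-202 had 13, 133, 150, 163 and 196 reads and ALDH1A3-201 had 19, 114, 162, 147 and 176. Both rose, with slopes of 2.63 ± 0.39 and 2.46 ± 0.35 (adjusted p 4.38e-05 and 2.46e-05, edgeR over 31758 transcripts). The shorter form took 39.4% of the gene's reads in the 100:0 library (95% Wilson interval 24.7 to 56.3) and 51.4% in the 0:100 library (46.4 to 56.4), and these intervals overlap. The test of isoform usage gave an adjusted p of 1 by edgeR's diffSpliceDGE. ALDH1A3 shares its locus with an opposite-strand RNA, ALDH1A3-AS1, which had 39 reads over the 5 libraries against 1301 for ALDH1A3. Whether counting used strand is not given in the sources used here, so reads of the 2 cannot be told apart with certainty.

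Of the mitochondrial acetaldehyde enzymes ALDH2 rose and ALDH1B1 did not pass the test. ALDH2, the main enzyme clearing ethanol-derived acetaldehyde, lies at chr12:111766887-111817532 on the plus strand. It had 33, 40, 76, 46 and 56 reads, or 9.72, 9.27, 19.5, 16.1 and 20.8 CPM. The first pair of libraries was low and the other 3 were higher, without an order among them. The slope was 1.18 ± 0.35 (adjusted p = 0.0151, edgeR), and the pure libraries differed 2.14-fold (95% counting interval 1.37 to 3.40), HCC827 being higher. This call was the least firm of the 4: the adjusted p was 0.0613 without the 75:25 library, 0.0665 without the 0:100 library and 0.0849 under scaling by library totals. ALDH2-201, with 97.6% of the gene's reads and a slope of 1.14 ± 0.34 (adjusted p = 0.013, edgeR; 0.0575 without the 100:0 library and 0.067 without the 75:25 library), spans 9561 bases, the longest of the leading transcripts of the set, in libraries size-selected for a target of about 2 kb.

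ALDH1B1, a mitochondrial paralogue whose coding sequence is 76.3% identical to that of ALDH2 over 1517 aligned bases, lies at chr9:38392702-38398661 on the plus strand. Its levels were 71.0, 58.1, 66.0, 60.8 and 53.9 CPM, from 241, 251, 257, 174 and 145 reads, all in 1 transcript. They did not run in order, and the slope of -0.29 ± 0.16 missed the threshold (adjusted p = 0.171, edgeR). With 1 library left out it ran from -0.39 to -0.15, the smallest being without the 100:0 library. The 0:100 library stood at 0.759 of the 100:0 library (95% counting interval 0.614 to 0.937).

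Enzymes of fatty and lipid-derived aldehydes went in opposite directions. ALDH3B1, a membrane-associated enzyme acting on medium- and long-chain aldehydes from lipid peroxidation, lies at chr11:68008578-68029282 on the plus strand. It had 268, 402, 437, 413 and 462 reads, or 79.0, 93.1, 112, 144 and 172 CPM. Each step towards HCC827 was higher than the last. Its slope of 1.15 ± 0.12 had the smallest adjusted p of the 7 tested genes, 1.47e-05 (edgeR), and the pure libraries differed 2.18-fold (95% counting interval 1.87 to 2.54).

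Over the 5 libraries 57.6% of ALDH3B1 reads were assigned to ALDH3B1-205, a transcript annotated as retaining an intron, and 36.9% to ALDH3B1-201, the canonical coding form. The retained intron spans 3067 bases, chr11:68015460-68018526, after exon 2 of ALDH3B1-201. ALDH3B1-205 has 5884 bases and ALDH3B1-201 has 2811, in libraries size-selected for a target of about 2 kb. A read that covers only exons after the intron fits both forms. How such reads were split is not given in the sources used here, so the shares do not measure how much of the RNA was unspliced. The sequences around the end of that exon are shown because they separate spliced from unspliced reads of the member with the most reads over the 5 libraries; capitals mark the bases that follow the exon.
ALDH3B1-201: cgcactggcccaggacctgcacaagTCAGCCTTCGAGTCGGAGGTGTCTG
ALDH3B1-205: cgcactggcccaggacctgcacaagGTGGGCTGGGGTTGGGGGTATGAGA

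ALDH3B1-205 had 150, 223, 258, 247 and 264 reads and ALDH3B1-201 had 94, 155, 156, 147 and 180. Their slopes were 1.16 ± 0.16 and 1.17 ± 0.18 (adjusted p 2.48e-05 and 6.44e-05, edgeR), so both forms rose. The retained-intron form took 56.0% of the gene's reads at 100:0 and 57.1% at 0:100. A test of isoform usage in ALDH3B1 gave a Simes p of 0.0209 before and 0.872 after adjustment over 7455 genes (diffSpliceDGE). The lowest unadjusted p of a transcript was that of ALDH3B1-204 (0.00698, diffSpliceDGE), with 62 reads over the 5 libraries. For ALDH3B1-205 and ALDH3B1-201 it was 0.799 and 0.785. An annotated RNA on the opposite strand within the locus had 21 reads, against 1982 for ALDH3B1.

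ALDH3A2, the fatty aldehyde dehydrogenase of the endoplasmic reticulum whose loss causes Sjögren-Larsson syndrome, lies at chr17:19648136-19685760 on the plus strand. It had 213, 225, 181, 112 and 99 reads, or 62.7, 52.1, 46.5, 39.1 and 36.8 CPM. Each step towards HCC827 was lower than the last. The slope was -0.79 ± 0.16 (adjusted p = 0.0018, edgeR), and the level was 1.70-fold higher in NCI-H1975 than in HCC827 (95% counting interval 1.34 to 2.19).

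ALDH3A2 reads were spread over 32 of its 42 listed transcripts. The pair with the most reads, ALDH3A2-219 and ALDH3A2-201, held 92 and 80 reads, 11.1% and 9.64% of the gene's total. Neither passed the test on its own (adjusted p 0.0677 and 0.354, edgeR), while ALDH3A2-221, ALDH3A2-222 and ALDH3A2-226 fell, with slopes of -2.55, -1.89 and -2.61. Without the 0:100 library ALDH3A2-226 passed narrowly (adjusted p 0.0483, edgeR), and it had too few reads to be tested without the 100:0 or the 75:25 library. The others did not pass without the 0:100 library (0.0559 for ALDH3A2-221 and 0.115 for ALDH3A2-222); ALDH3A2-221 was also lost without the 100:0 library (0.0758), and ALDH3A2-222 without the 75:25 (0.0937) or 25:75 library (0.111). These 3 were the only transcripts of the set that fell; together with the 5 that rose (2 of ALDH1A3, 2 of ALDH3B1 and ALDH2-201) they made 8 of 26 tested, beside 33.6% of all transcripts tested. Isoform usage in ALDH3A2 had a Simes p of 0.0344 before adjustment and 1 after it (diffSpliceDGE). The lowest unadjusted p of a transcript was that of ALDH3A2-206 (0.00382, diffSpliceDGE), not of a transcript that fell. Its share of the gene's reads was 3.76% at 100:0 and 12.1% at 0:100. Of the 4 members with at least 2 tested transcripts none passed the adjusted threshold for usage, by the Simes or the gene-level F test, and 2 had an unadjusted Simes p under 0.05. Over all 7455 genes 0.402% passed the adjusted Simes threshold and 3.85% had an unadjusted Simes p under 0.05.

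ALDH3A1, which lies 52.2 kb from ALDH3A2, at chr17:19737984-19748943 on the minus strand, is an abundant protein of the cornea that also acts on lipid aldehydes. It had 1, 3, 0, 0 and 0 reads over 17 listed transcripts and was not tested. Both libraries with a read were rich in NCI-H1975 RNA, but 4 reads are too few for a comparison.

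**Figure D2:**
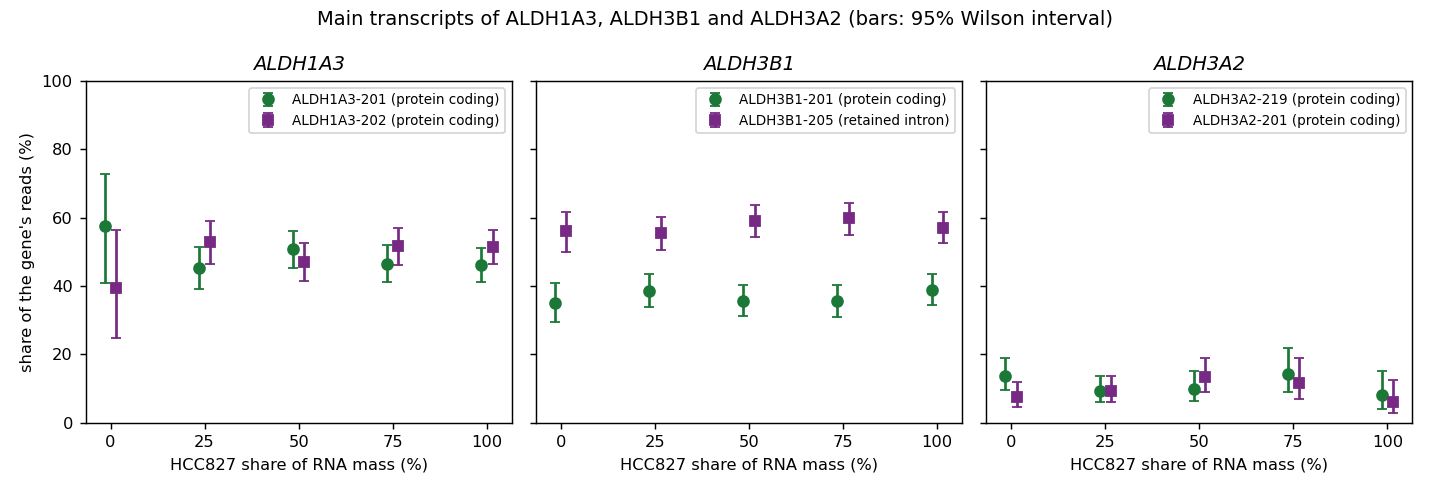
Share of each gene's reads (y axis, %) taken by its 2 most abundant transcripts against the HCC827 share of RNA mass (x axis, %); points are single libraries and bars 95% Wilson intervals. The retained-intron form ALDH3B1-205 took 55.5 to 59.8% of ALDH3B1 reads, the ALDH1A3 forms had overlapping intervals in every library, and the leading ALDH3A2 forms took at most 14.3%.

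The remaining members, enzymes of amino acid, choline, carnitine and polyamine metabolism, had slopes below 0 that missed the threshold. ALDH7A1, or antiquitin, oxidises the semialdehyde of lysine breakdown and betaine aldehyde, and lies at chr5:126531200-126595362 on the minus strand. It had 205, 203, 158, 127 and 116 reads, or 60.4, 47.0, 40.5, 44.4 and 43.1 CPM. The 100:0 library was the highest and the other 4 lay close together. The slope was -0.45 ± 0.19 (adjusted p = 0.0713, edgeR), and the 0:100 library stood at 0.714 of the 100:0 library (95% counting interval 0.564 to 0.901). The call depended on the setting: the adjusted p was 0.0363 among genes with 10 reads in every library and 0.00242 under scaling by library totals, and slopes with 1 library left out ran from -0.66 to -0.11. Reads lay on 32 of 37 listed transcripts, of which 9 were tested; by edgeR the most abundant, ALDH7A1-201, had a slope of 0.18 ± 0.43.

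ALDH9A1, which makes the carnitine precursor butyrobetaine and also oxidises aldehydes from polyamines, lies at chr1:165662216-165698562 on the minus strand. It had 283, 317, 294, 197 and 188 reads, or 83.4, 73.4, 75.4, 68.9 and 69.9 CPM, with 99.0% of reads on 1 transcript. The counting intervals of the pure libraries, 73.9 to 93.7 and 60.3 to 80.6 CPM, overlap. The slope was -0.24 ± 0.14 (adjusted p = 0.174, edgeR), and -0.13 without the 100:0 library.

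Scaling matters for the genes with small slopes. With library totals in place of TMM the median slope of all genes moved from -0.035 to -0.44. On that scale ALDH1B1 (-0.69), ALDH7A1 (-0.86) and ALDH9A1 (-0.65) passed the threshold as falling and ALDH2 no longer passed, which makes 2 members rising and 4 falling. ALDH1A3, ALDH3B1 and ALDH3A2 kept their direction and call in all 14 other settings run.

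Levels of different members were compared per kilobase of read-weighted transcript length. In the 100:0 library ALDH9A1 was highest, at 31.2 CPM per kb, with an interval above that of ALDH1B1. ALDH1B1 (23.4), ALDH7A1 (23.3), ALDH3A2 (18.6) and ALDH3B1 (17.4 CPM per kb) followed, each with an interval that overlapped that of the next. ALDH1A3 (3.01) and ALDH2 (1.04 CPM per kb) lay below these and apart from each other. In the 0:100 library ALDH1A3 (95% counting interval 39.7 to 48.7 CPM per kb) and ALDH3B1 (34.4 to 41.4) led with overlapping intervals. ALDH9A1 came next at 26.1, ALDH1B1 and ALDH7A1 overlapped at 17.8 and 16.7, and ALDH3A2 (10.9) and ALDH2 (2.22 CPM per kb) were lowest. On this scale ALDH1A3 was thus the sixth of the 7 at 100:0. At 0:100 it was one of the leading pair, not told apart from ALDH3B1. ALDH2 was the lowest of the 7 at both ends. The order depended in part on the division by length. Without it, ALDH1A3 and ALDH2 had the same level at 100:0, 9.72 CPM from 33 reads each. ALDH3B1 (79.0 CPM) lay there above ALDH1B1 (71.0), ALDH3A2 (62.7) and ALDH7A1 (60.4). At 0:100 ALDH3B1 (172 CPM, 156 to 188) was above ALDH1A3 (142, 128 to 157), with intervals that still overlapped. Whether the number of nanopore reads scales with transcript length in these libraries was not tested.

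The intermediate libraries were set against the mass-weighted mean of the pure ones. ALDH1A3 in the 75:25 library reached 58.4 CPM (51.4 to 66.0), above the 42.7 CPM given by mass, a ratio of 1.37. For the 7559 genes that reached 100 reads over both pure libraries, the ratio at 75:25 had a median of 0.998, with 10% of genes under 0.853 and 10% above 1.16. The HCC827 share of reads in that library, estimated from unscaled reads, was 32.7%. Weighting the TMM-scaled levels by it gave 52.9 CPM for ALDH1A3. Factors of the TMM scaling were 1.158 at 100:0 and 0.8696 at 0:100, so this weighting mixes unlike scales. For ALDH3B1 it gave 109 CPM at 75:25, where the observed interval was 84.2 to 103. At 50:50 it gave 130 CPM, where the interval was 102 to 123. Whether the read share accounts for any of these differences was not tested on a matching scale. In the 50:50 and 25:75 libraries ALDH1A3 stood at 1.08 and 1.02 of the mass-weighted value.

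By mass, ALDH7A1 lay below its expected level at 75:25, with 47.0 CPM (40.8 to 54.0) against 56.1, and at 50:50, with 40.5 CPM (34.5 to 47.4) against 51.8, ratios of 0.839 and 0.783. With read-share weights, which mix unlike scales as above, its expected levels were 54.7 and 50.8 CPM. ALDH1B1 at 75:25 had 58.1 CPM (51.2 to 65.8), under the 66.7 given by mass. ALDH3B1 was at 0.912, 0.895 and 0.972 of the expected level in the intermediate libraries, and its counting interval at 50:50 (102 to 123 CPM) ended just under the expected 125. ALDH2 was at 0.741 of it at 75:25 and 1.28 at 50:50, on 40 and 76 reads, and at 50:50 its interval began just above the expected level (15.4 against 15.3 CPM). For ALDH9A1 the expected level lay inside the counting interval in all 3 libraries.

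The genes most like ALDH1A3 in their profile were S100P, a calcium-binding protein, the mitochondrial transfer RNA gene MT-TT and the chemokine gene CXCL5. Likeness was the Euclidean distance of log2(CPM + 1) over the 5 libraries after each gene's mean was subtracted, and came to 0.175, 0.222 and 0.222. S100P went from 4.42 to 64.0 CPM in the same order of libraries. Nearest to ALDH3A2 were MTMR11, RAB21 and SMC1A, at 0.0429, 0.0626 and 0.0666. RAB21 went from 86.6 to 51.3 CPM, a fall that no longer passed once the trend on transcript length was removed (adjusted p = 0.118, edgeR). MTMR11 had few reads (5.01 to 2.60 CPM) and its own slope did not pass the test (adjusted p = 0.191, edgeR).

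The rest of the human family put the set in context. Of the other 10 genes 8 were tested, with a median slope of 0.08. The 2 that passed, ALDH1L2 and ALDH3B2, both fell. ALDH1L2, a mitochondrial enzyme of folate metabolism, had 52, 58, 29, 15 and 3 reads (slope -2.77 ± 0.49, adjusted p = 0.000539, edgeR). It was 13.7-fold lower in HCC827 (95% counting interval 4.45 to 68.7), from 3 reads there. ALDH1L2 overlaps NOPCHAP1 and WASHC4 on the opposite strand, which held 672 and 503 reads.

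ALDH3B2 went against its neighbour ALDH3B1, 327.4 kb away on chromosome 11. It had 42, 41, 25, 15 and 9 reads, or 12.4, 9.50, 6.42, 5.24 and 3.35 CPM, and was lower at each step. Its slope was -1.82 ± 0.41 (adjusted p = 0.00288, edgeR), and it was 3.70-fold lower in HCC827. Coding sequences of the pair are 88.6% identical over 1147 aligned bases, and how reads were split within the pair is less certain than for other members.

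The other 6 tested genes of the family did not pass. By edgeR their slopes were 1.03 ± 0.46 for ALDH5A1 (adjusted p = 0.0799), 0.46 for ALDH16A1, 0.25 for ALDH4A1, 0.23 for ALDH6A1, -0.06 for ALDH18A1 and -0.22 for ALDH1L1. ALDH5A1 passed without the 75:25 library (slope 1.56, adjusted p = 0.0208, edgeR) and with the length trend removed (0.0435), and had a slope of 0.36 without the 100:0 library (0.609). ALDH8A1 had no read. With all 19 family genes counted, 15 were tested, 3 rose and 3 fell, beside 23.5% rising and 22.3% falling among all genes tested.

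**Figure D3:**
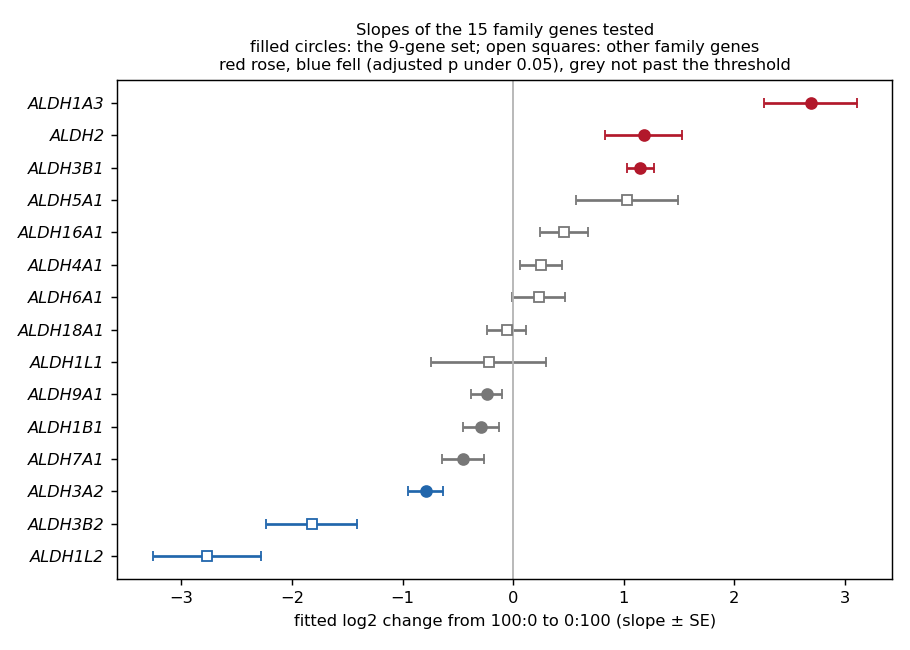
Slope along the series, NCI-H1975 to HCC827 (x axis, log2 units, bars of ± SE) for the 15 tested genes of the family (y axis), filled for the 9-gene set and open for the others. Red genes rose, blue genes fell and grey genes did not pass the threshold; ALDH1A3 at 2.69 and ALDH1L2 at -2.77 are the ends of the range.

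Genes that supply or remove the members' substrates were counted from lists of names, chosen with earlier results of these data known. Around ALDH1A3, 13 of 22 genes of retinoid handling were tested, of which 6 rose and 3 fell, with a median slope of -0.05. These 9 calls are 69.2% of the genes tested, beside 45.8% of all genes (23.5% rising and 22.3% falling), and the counts of the lists that follow are to be read against the same shares. DHRS3, which returns retinaldehyde to retinol, and RDH10, the retinol dehydrogenase that makes retinaldehyde, both rose. DHRS3 went from 21.5 to 94.4 CPM (slope 2.00 ± 0.17, adjusted p = 4.65e-06, edgeR) and RDH10 from 12.1 to 63.2 CPM (adjusted p = 0.000174, edgeR). RDH11 fell from 262 to 95.9 CPM. Of the binding proteins of retinoids and fatty acids, FABP5 fell from 94.6 to 40.9 CPM and CRABP2 rose from 79.2 to 107 CPM, a call lost under library totals (adjusted p = 0.591, edgeR), without the 0:100 library (0.108) and after removal of the length trend (0.195). CYP26B1, which breaks down retinoic acid, fell from 15 reads to 1, a call lost without the 0:100 library (adjusted p = 0.0794, edgeR). CYP26A1, of the same family, went the other way, with 0, 1, 0, 5 and 13 reads, too few to be tested. Of the receptors tested, RARG went from 55.4 to 40.5 CPM and did not pass (slope -0.36 ± 0.18, adjusted p = 0.122, edgeR). RARA, RXRA and RXRB rose with slopes of 0.60, 0.57 and 0.47. All 3 lost the call under library totals, RARA also with the DESeq2 Wald test (adjusted p = 0.0842) and without the 100:0 (adjusted p = 0.136, edgeR) or 0:100 library (0.277), and RXRB in 9 of 14 other settings, with an adjusted p up to 0.767.

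Enzymes that reduce aldehydes and other carbonyls moved in both directions: of 12 genes 9 were tested, 2 rose and 4 fell (median slope -0.47; 66.7% called, beside 45.8% of all genes). AKR1B1, the aldose reductase, fell from 525 to 97.4 CPM (slope -2.27 ± 0.20, adjusted p = 4.59e-06, edgeR). AKR1A1, the aldehyde reductase, rose from 23.0 to 127 CPM (adjusted p = 6.42e-06, edgeR). DCXR rose from 37.1 to 93.0 CPM and PTGR1 fell from 75.1 to 33.1 CPM. CBR1 fell from 62.7 to 42.4 CPM at an adjusted p of 0.0468 (edgeR), a call lost in 5 of 14 other settings, among them each library left out except 75:25, with an adjusted p up to 0.419 (without the 100:0 library). AKR1C2 fell from 38 reads to 1, is one of a group of near-identical genes whose reads may be split, and lost its call without the 0:100 library (adjusted p = 0.0679, edgeR). Of 7 alcohol dehydrogenases only ADH5 was tested. Its levels of 126 and 119 CPM in the pure libraries did not differ beyond counting error (slope -0.01 ± 0.13, adjusted p = 0.939, edgeR).

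Of 9 genes around ALDH7A1 and ALDH9A1 in lysine, choline and carnitine metabolism 6 were tested, 2 rose and 2 fell. TMLHE, which starts carnitine synthesis upstream of ALDH9A1, had 0, 41, 47, 50 and 63 reads. Set to the floor of 3 reads in the 100:0 library, it was at least 26.5-fold higher in HCC827 (the lower limit of the exact 95% counting interval was 20.9), and it passed the edgeR test (adjusted p = 0.00341) but not the DESeq2 Wald test (0.145). SLC22A5, the carnitine transporter, rose from 3.83 to 8.92 CPM, a call lost in 7 of 12 other settings, all directions being kept. AADAT and DHTKD1, of lysine breakdown, fell, from 37 to 3 reads and from 126 to 40 reads. Without the 0:100 library AADAT no longer passed (adjusted p = 0.0602, edgeR).

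Of 8 polyamine genes 7 were tested: SRM rose, SMS and AMD1 fell and the median slope was -0.16. SMS, spermine synthase, went from 279 to 174 CPM and SRM, spermidine synthase, from 80.7 to 115 CPM. The SRM call was lost under library totals (adjusted p = 0.513, edgeR) without the trend on transcript length (0.157) and without the 0:100 library (0.112), and the AMD1 call in 6 of 14 other settings, with an adjusted p up to 0.188 (without the 0:100 library). AOC1, the diamine oxidase that makes an aldehyde from putrescine, had a slope of 1.93 ± 0.77 that missed the threshold (adjusted p = 0.056, edgeR), with slopes from 0.82 without the 0:100 library (0.632) to 2.59 without the 75:25 library (0.0489). It also passed without the 25:75 library (0.0232).

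**Figure D4:**
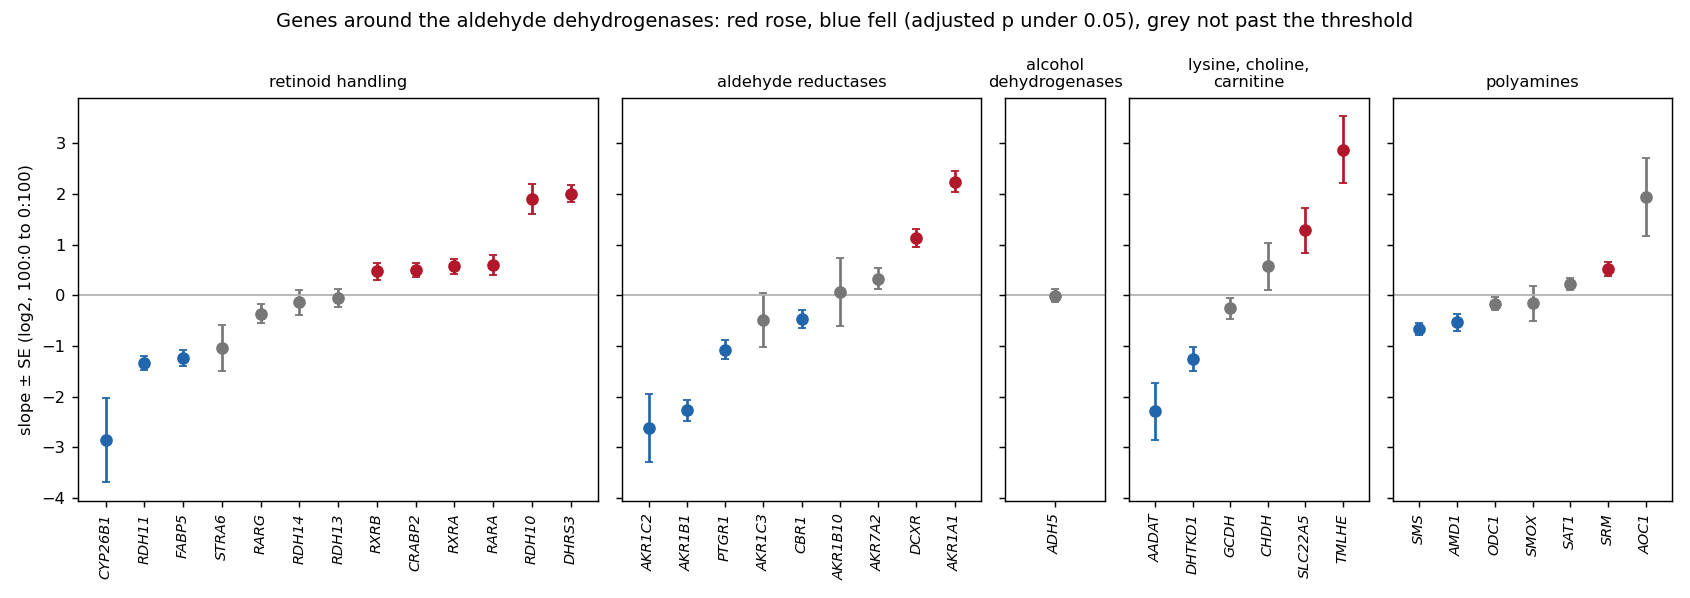
Slope along the series, NCI-H1975 to HCC827 (y axis, log2 units, bars of ± SE) for the tested genes of the 5 lists of related enzymes, transporters and receptors (x axis, 1 gene per point). Red points rose, blue points fell and grey points did not pass the threshold; in each of the retinoid, reductase, lysine-choline-carnitine and polyamine lists genes moved in both directions.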

How the data were processed

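Long-read cDNA of 5 RNA mixtures was measured, 1 library for each ratio. The deposited tables, 1 for each library, give estimated counts per transcript, not scaled by the authors; 2 values that were not whole were rounded. Per the submitters' processing notes, minimap2 2.24, Salmon 1.9.0 and GRCh38 were used, with no role given; the annotation release is not given in the sources used here. Transcripts were paired with genes through GENCODE v44: 224076 of 227751 human identifiers matched, holding 98.6% of human reads. Identifiers listed a second time (161) were summed. The sources do not say how ambiguous reads were split, which bears on paralogues and on transcripts of 1 gene.

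Slopes on the HCC827 mass fraction were fitted over all 5 libraries with edgeR 4.0.16 (R 4.3.3; TMM; a minimum of 10 reads in 2 libraries) and adjusted by the Benjamini-Hochberg method over all features tested, with a threshold of 0.05; SEs were derived as slope over the root of F. Isoform usage was tested with diffSpliceDGE. A mixture is linear in expression, so a log2 slope is smaller than the ratio of the pure libraries where 1 line has few reads. Ratios of the pure libraries carry exact 95% conditional binomial intervals, and a library under 3 reads was set to 3. Without molecular identifiers, intervals and limits cover counting error only. The fit was tested on simulated counts, where 124 of 197 changed genes were recovered and 8 of 132 calls were false (6.06%). At a true ratio of 0.5 it recovered 16 of 48 genes, and at a ratio of 2 it recovered 26 of 50. A missed threshold therefore does not show that a gene is unchanged. Far fewer genes were changed there than were called in these data.

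Every member is named; of each related list, up to 4 tested genes with the steepest slopes are named, with the 3 nearest profiles of the steepest called rise and fall. RARA, RARG, RXRA, RXRB, CRABP2, CYP26A1, FABP5, PTGR1 and CBR1 were added after their values were seen. Transcripts named are the 2 with the most reads per gene, and those of ALDH3A2 that fell, chosen after their values were seen. Members and lists were chosen with earlier results of these data known. The planned protein comparison was not run.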

Additional observations from a re-analysis of the deposited data

How the results depend on the processing

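No paired analysis was possible because each ratio has 1 library. The 4 aldehyde dehydrogenases past the threshold became 3 without the 75:25 library and without the 0:100 library (range with 1 library left out 3 to 4, ALDH2 being the gene lost), 5 among genes with 10 reads in every library and 6 under library totals. Library totals also moved the share of calls that rise from 51.3% to 26.3%, the median slope from -0.035 to -0.44, and the HCC827 to NCI-H1975 ratios to 0.570 for ALDH1B1, 0.441 for ALDH3A2, 1.63 for ALDH3B1, 0.537 for ALDH7A1 and 0.630 for ALDH9A1. With 1 library left out, genes called ran from 4067 (without 0:100) to 5860 beside 6175, transcripts from 6290 (without 0:100; 6624 without 100:0) to 10175 beside 10660, and genes with changed isoform usage from 4 (without 100:0) to 20 beside 30; the gene-level F test called 64. DESeq2's Wald test called 4791 genes and the same number of members, 4. With the trend of counts on transcript length removed, a setting chosen after seeing the data like that without retained-intron transcripts, 4 members passed.

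Of 656 slopes of 48 single genes over 14 settings, 593 kept direction and side of the threshold, 46 lost the call, 11 gained it and 6 turned sign, none of these past the threshold. Those that turned were ALDH1L1 without 0:100 (0.11), ALDH4A1 (-0.16) and ALDH6A1 (-0.18) under library totals, ALDH18A1 with the length trend removed (0.015), and ADH5 without retained-intron transcripts (0.0062) and without 100:0 (leave-1-out range -0.065 to 0.14). Among transcripts, ALDH3A2-201 turned without 0:100 (leave-1-out range -1.21 to 0.10) and ALDH7A1-201 without 75:25 (-0.012), without 0:100 (leave-1-out range -0.55 to 1.08) and under library totals (-0.17). The cause was not tested. Depth limits ALDH2, ALDH1L1, ALDH1L2, ALDH3B2 and ALDH5A1, with under 80 reads in each library, and leaves ALDH1A1 and ALDH3A1 without a test.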
